A study of Mus musculus with 8 samples.

Results

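Peaks of NONO-bound nuclear RNA that were centred in the 3' untranslated regions (UTRs) of protein-coding transcripts are described here across 4 immunoprecipitation libraries from mouse liver. A peak was counted when its midpoint lay in a 3' UTR of the GENCODE M21 annotation and in no coding exon or 5' UTR. The rule found 3300 peaks of 206501 in all, of which 724 of 38209 were in the fasted list, 977 of 61737 in the list 2 h after re-feeding, 1077 of 50609 in the list 10 h after re-feeding and 522 of 55946 in the IgG list. These counts are 1.89%, 1.58%, 2.13% and 0.933% of the lists.

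The mice were wild-type C57BL/6 animals, 14 weeks old, under a cycle with 12 h each of light and dark, and were fed only in the dark phase for a week before nuclei were taken from the liver. RNA was pulled down with an antibody to NONO at zeitgeber time 10 (fasted), 14 (2 h re-fed) and 22 (10 h re-fed), or with IgG, for which the labels give no feeding state or time. Each list is 1 library pooled from 2 experiments, set by the authors against its own input, so the spread between animals is unknown and no test between times can be made. Feeding state and time of day differ together and cannot be told apart. The libraries held between 18275033 and 21091048 tags, and a single peak over the small nuclear RNA gene Rn7sk took 37.5% of the IgG library.

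NONO is an RNA- and DNA-binding protein of the DBHS family and, with SFPQ and PSPC1, a core protein of paraspeckles, which form in the nucleus around the Neat1 transcript. It is known to bind RNAs whose 3' UTR holds inverted repeats that fold back on each other, and the nuclear transcript of the amino acid transporter gene Slc7a2 is the classic example of such an RNA being kept in the nucleus. 3' UTRs also carry AU-rich elements, often built on the pentamer AUUUA, to which proteins that set mRNA stability bind.

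The 3' UTRs under the peaks were read for both kinds of sequence, and the following arms of inverted repeats are shown because they have both arms under NONO peaks. They were chosen after their values were seen, as those with the most tags among the 10 such UTRs, and are given 5' to 3' on the transcript strand from the GENCODE M21 transcripts (GRCm38/mm10). Capitals mark the bases of the arm, and in each pair the capitals of the second sequence are the reverse complement of those of the first.
Dhtkd1 arm 1 (chr2:5897920-5897952, minus strand): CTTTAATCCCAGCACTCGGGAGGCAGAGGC
Dhtkd1 arm 2 (chr2:5897515-5897547, minus strand): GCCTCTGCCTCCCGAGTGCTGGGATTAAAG
BC005537 arm 1 (chr13:24814625-24814644, plus strand): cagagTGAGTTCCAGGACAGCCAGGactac
BC005537 arm 2 (chr13:24815557-24815576, plus strand): atagcCCTGGCTGTCCTGGAACTCAaactt
Cbs arm 1 (chr17:31609597-31609627, minus strand): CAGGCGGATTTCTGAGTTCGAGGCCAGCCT
Cbs arm 2 (chr17:31609064-31609094, minus strand): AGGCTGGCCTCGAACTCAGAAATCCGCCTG
Nsd2 arm 1 (chr5:33870292-33870307, plus strand): atattaaAAATGAAAGGGTTTCTacttcag
Nsd2 arm 2 (chr5:33870313-33870328, plus strand): ctacttcAGAAACCCTTTCATTTaggcatt
The coordinates are those of the whole arm, and of the arms of Dhtkd1 (33 bases) and Cbs (31 bases) 30 bases are shown. The arms lie 372 bases apart in Dhtkd1, 912 in BC005537, 502 in Cbs and 5 in Nsd2.

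The next stretches are AU-rich ones under peaks with many tags, with each ATTTA in capitals, and one from a leading peak that holds none. All are on the transcript strand of the same annotation. Each was picked as the 30 bases of its peak with the most copies of ATTTA, so the stretches are not typical of the peaks. Among the leading peaks searched in this way, most gave a stretch with 1 copy.
Atp13a3, fasted (chr16:30313264-30313293, minus strand): tgataatattgctgATTTAaattttATTTA
Rbm47, 10 h (chr5:66017220-66017249, minus strand): gattttatatatataagaaatATTTATTTA
Slc38a2, 2 h and 10 h (chr15:96687943-96687972, minus strand): ggaacgtttcaataactgtactgttATTTA
Aox3, 10 h (chr1:58138473-58138502, plus strand): tgtctagatccagggcacacgtgttctgga
The UTR under the Atp13a3 peak holds 5 copies of ATTTA at 30.1% GC, that under the 10 h Rbm47 peak 3 copies at 41.3% and that under the 10 h Slc38a2 peak 2 copies at 35.0%. The Aox3 peak holds none at 41.8% GC.

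NONO peaks were denser along 3' UTRs than along coding exons or 5' UTRs. Per Mb of annotated 3' UTR there were 22.8 peaks in the fasted list, 30.8 at 2 h, 33.9 at 10 h and 16.4 with IgG, against 4.65, 7.51, 3.44 and 11.8 per Mb of coding exon. Introns carried 35.3, 56.9, 46.3 and 52.0 peaks per Mb, so the 3' UTR was at 0.645, 0.541 and 0.732 of the intron density in the NONO lists and at 0.316 in the IgG list. The IgG list thus had fewer 3' UTR peaks per intron peak than any of the 3 NONO lists, and more coding exon peaks. Coding exons and 5' UTR exons are mostly shorter than the 500 bp peak, so that the midpoint of a peak over such an exon can fall in the intron beside it, whereas 95.7% to 96.1% of the NONO peaks counted here lay in a 3' UTR made of a single exon.

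**Figure D1:**
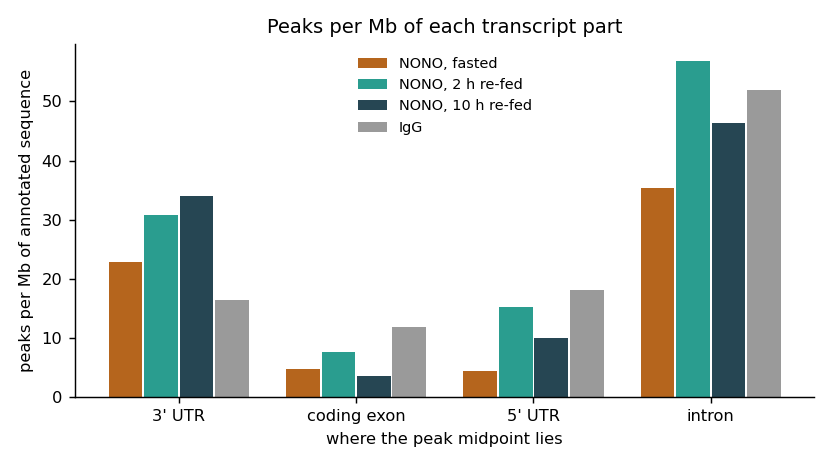
Peaks per Mb of annotated sequence (y axis) by the transcript part in which the midpoint lies (x axis), with 1 bar for each of the 4 libraries. In 3' UTRs the 3 NONO bars stand at 22.8, 30.8 and 33.9 and the IgG bar at 16.4, whereas in coding exons the IgG bar is the tallest at 11.8.

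The 3' UTR peaks carried more RNA than intron peaks in both immunoprecipitate and input, and a smaller ratio between them. Tags are counts of reads in a peak, scaled by the authors to 10000000 per library, where a single read is worth 0.474 to 0.547 normalised tags. The median 3' UTR peak held 34.2 normalised tags per kb in the fasted list, 28.8 at 2 h, 35.5 at 10 h and 18.1 with IgG, and the median intron peak 25.6, 20.8, 25.2 and 15. Scaled to the tags outside the Rn7sk peak, the IgG median of 3' UTR peaks was 28.9, level with that at 2 h. Input tags within the median 3' UTR peak came to 9.46, 7.97, 9.69 and 3.54, and within the median intron peak to 6.31, 5.49, 6.33 and 2.54. The fold over input was accordingly lower, with medians of 2.43, 2.57, 2.37 and 3.53 against 2.81, 3.12, 2.83 and 4.16. Median widths of 3' UTR peaks were 500 bp (fasted), 627 bp (2 h), 627 bp (10 h) and 500 bp (IgG), where 500 bp is the narrowest width the peak calling allows.

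A fold of 3 or more over input was reached by 29.3% of 3' UTR peaks in the fasted list, 35.0% at 2 h, 24% at 10 h and 61.7% with IgG. Over all peaks the same shares were 44.4%, 53.9%, 43.6% and 73.8%, so in all 4 lists the 3' UTR peaks lay closer to the authors' threshold of 2-fold. The peaks with the most tags were among the least enriched. Of the 49, 73 and 89 NONO peaks in 3' UTRs with at least 100 normalised tags, 41, 60 and 77 had a fold under 2.5. These are 83.7%, 82.2% and 86.5%, and intron peaks with as many tags were near them at 76.9%, 71.6% and 82.5%. Low fold at high tags was thus not particular to 3' UTRs. The highest folds belonged to peaks with few tags, such as the 10 h peak of Gga2, a gene for a clathrin adaptor of the Golgi, with 7.66 tags at 36.4-fold over an input of 0.210 tags.

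NONO peaks in 3' UTRs met IgG peaks less often than NONO peaks elsewhere. No IgG peak overlapped 636 of 724 3' UTR peaks in the fasted list, or 87.8% (95% exact Clopper-Pearson interval 85.2 to 90.1). At 2 h the share was 81.9% (79.3 to 84.2) and at 10 h 85.3% (83.1 to 87.4). Over all peaks of the lists 66.3%, 60.7% and 60.5% were free of IgG, and the introns of the same host genes gave 61.7%, 57.3% and 56.7%. The intervals cover counting error only.

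Width and tags both bear on this share, since wide and strong peaks met IgG more often. Among peaks of exactly 500 bp, 90.7%, 90.1% and 91.7% of 3' UTR peaks were free of IgG, against 72.1%, 76.3% and 71.0% of intron peaks. Among peaks of at least 60 normalised tags the shares were 74.4%, 54.1% and 73.4% for 3' UTRs and 31.8%, 20.9% and 25.5% for introns. A 3' UTR peak whose midpoint is also in an intron of another transcript of the host gene was free of IgG in 69.9%, 66.7% and 69.2% of cases, and the others in 91.9%, 85.5% and 89.0%. Thus the difference from introns was present at equal width, at high tags and within host genes, and was smallest where the 3' UTR is intronic in another isoform. IgG peaks themselves were sparser in 3' UTRs, at 16.4 per Mb against 52.0 in introns. A NONO peak there has fewer IgG peaks to meet, and how much of the difference goes with this was not tested. Freedom from IgG refers to the peak alone, since 81.0%, 79.8% and 79.1% of the host genes had an IgG peak somewhere in the gene body.

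**Figure D2:**
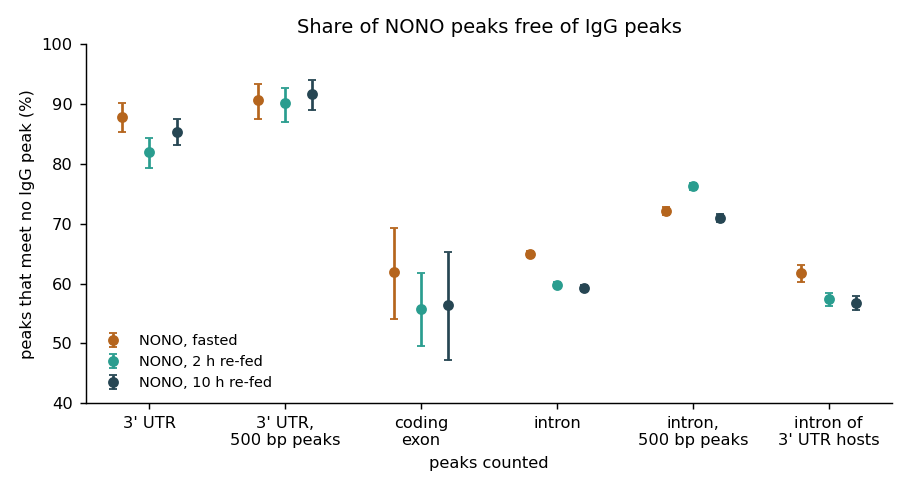
Share of NONO peaks that no IgG peak overlaps (y axis, percent, drawn from 40 to 100) for the kinds of peak named on the x axis, with 1 point for each NONO library and bars for the 95% exact Clopper-Pearson interval of counting error. The 3' UTR points lie between 81.9% and 87.8%, above the intron points at 59.2% to 64.9%.

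Host genes had long 3' UTRs. There were 675 host genes in the fasted list, 873 at 2 h, 977 at 10 h and 473 with IgG, and 1590 of 20998 protein-coding genes (7.57%) had an IgG-free NONO peak in the 3' UTR at 1 or more times. The median 3' UTR of these 1590 genes was 2573.5 bases long, against 1025 for genes whose NONO peaks all lay elsewhere and 953.5 for all genes. By length of the UTR, the share of genes hosting a peak in the fasted list was 0.379% up to 1 kb, 3.35% from 1 to 2 kb, 7.67% from 2 to 4 kb and 12.0% over 4 kb. The IgG list showed the same order with lower shares above 1 kb, at 0.434%, 2.36%, 4.55% and 9.34%. Longer UTRs offer more sequence, and per Mb of UTR the IgG-free host genes at any time numbered 23.8, 61.5, 63.9 and 42.0 in the 4 length classes.

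Within the UTR, peaks lay towards the distal end. The median midpoint was 62.6% of the way from stop codon to transcript end in the fasted list, 60.6% at 2 h, 58.9% at 10 h and 55.7% with IgG. The first 20% of the UTR held 9.12%, 8.50% and 8.91% of the NONO peaks and 12.1% of the IgG peaks, and the last 20% of it 27.9%, 24.5%, 21.4% and 23.6%. A peak cannot be centred close to the stop codon of a UTR without reaching the coding exon, and 6.91%, 8.19% and 6.04% of NONO peaks covered the stop codon, against 14.8% with IgG. The transcript end was covered by 23.2%, 23.7%, 21.1% and 24.3% of the peaks.

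**Figure D3:**
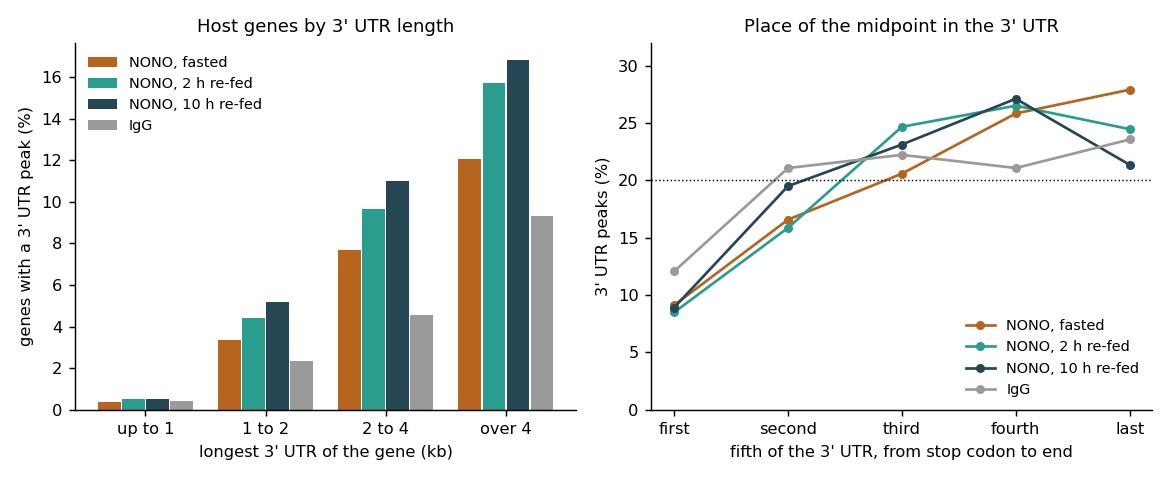
Left, share of genes that host a 3' UTR peak (y axis, percent) by the length of the gene's longest 3' UTR in kb (x axis). Right, share of 3' UTR peaks (y axis, percent) whose midpoint lies in each of 5 equal parts of the UTR from stop codon to end, with a dotted line at the 20% of an even spread. In every list the share of host genes is highest over 4 kb, where it is 12.0%, 15.7%, 16.8% and 9.34%, and the part next to the stop codon holds the fewest peaks.

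The RNA under the NONO peaks was slightly richer in A and U than the rest of the same UTRs. The median difference in GC content, peak minus rest, was -1.73 percentage points (fasted), -0.814 (2 h) and -1.83 (10 h), and 0.391 with IgG. GC content was lower under the peak than in the rest of the UTR for 63.2% of the fasted peaks that could be compared, 55.5% at 2 h and 64.4% at 10 h, and for 46.8% of the IgG peaks. Of the NONO peaks of 500 bp that lay wholly in the UTR, 69.0% (fasted), 66.8% (2 h) and 65.2% (10 h) held the pentamer ATTTA on the transcript strand. The wider Atp13a3, Rbm47 and Slc38a2 peaks, of which stretches are printed above, are not among these. Windows of the same length laid end to end along the UTRs held it in 52.9% for all genes, in 50.7% for genes with NONO peaks elsewhere only and in 58.7% for host genes. In the IgG list 49.7% of the 199 such peaks did (95% exact interval 42.6 to 56.9). A 500 bp stretch holding the pentamer was thus more frequent among NONO peaks than among windows of all UTRs or of host UTRs. The interval of the IgG peaks includes the share over all UTRs. Against the rest of the same UTRs the difference was small, and absent in the fasted list. The median count of ATTTA per kb was 2 under the NONO peaks that could be compared. In the rest of their UTRs it was 2.025 (fasted), 1.88 (2 h) and 1.90 (10 h). The frequency of the pentamer moves with base composition, and the 2 were not separated. Median GC content was 39.4%, 40.2% and 39.2% under the NONO peaks of 500 bp, 42.4% under the IgG peaks and 43.2% over all windows. A match to these letters is not a bound site.

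Inverted repeats were found in 90 of the 1590 host UTRs (5.66%, 95% exact interval 4.58 to 6.91), counted as perfect arms of 16 bases or more with at least 4 G or C in 16. Among genes with NONO peaks elsewhere only the share was 1.28%. Inverted repeats were more frequent in longer UTRs. From 2 to 4 kb the shares were 3.90% in host UTRs and 3.15% in the others. Over 4 kb they were 16.2% (12.6 to 20.5) and 8.09% (5.63 to 11.2), which do not overlap in their counting intervals. This class has no upper limit, and length was not matched within it. The upper quartile was 6768 bases in host UTRs and 5988.8 in the others. Genes whose NONO 3' UTR peaks were always met by IgG had 12.1% (3.40 to 28.2) over 4 kb, an interval that includes both shares. The median arm was 19 bases, the longest 101, and the median gap 939 bases.

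In 41 of the 90 UTRs at least 1 arm lay under an IgG-free NONO peak, and in 10 both did. Words of the rodent B1 repeat recurred in the arms. CTGTCCTGGAAC or its reverse complement GTTCCAGGACAG, which the BC005537 arms above contain, was present in 13 of the 90 pairs of arms. The word was found on either strand in 12.3% of host UTRs, 4.59% of UTRs of genes with NONO peaks elsewhere only and 4.34% of all UTRs, with no account taken of their length.

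Among the UTRs whose arms are printed, Dhtkd1, a gene for an enzyme of lysine breakdown in mitochondria, had a peak at each time, with 290.5 tags in the fasted list, 45.5 at 2 h and 374.3 at 10 h, none met by IgG. The 2 h peak was the lowest of the 3 and covered 1 of the arms. BC005537 held 99.8, 269.8 and 344.7 tags, and only its 10 h peak met an IgG peak. Cbs, the gene for cystathionine beta-synthase of the transsulfuration pathway, had 8.56 tags over one arm in the fasted list and 84.3 tags over the other at 10 h, with no 3' UTR peak at 2 h. Nsd2, for a histone H3 methyltransferase, held 110.9 tags at 2 h and 18.1 at 10 h over both arms, and none over them in the fasted list.

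The leading IgG-free 3' UTR peaks included those of a transporter, a liver oxidase, an Fc receptor and RNA-binding proteins. Slc38a2, a sodium-coupled transporter of neutral amino acids, had no fasted peak in its 3' UTR, 663.8 tags at 2 h (chr15:96687249-96688018) and 781.9 tags at 10 h, at 2.85- and 2.84-fold over input. Aox3, an aldehyde oxidase of the liver, likewise had none in the fasted list, 680.9 tags at 2 h (chr1:58138550-58139375) and 1210.4 at 10 h, at 2.02- and 2.13-fold. Both genes were high at the re-fed times and without a called 3' UTR peak in the fasted list. Since a peak is listed only at 2-fold over input and both Aox3 values were near that limit, a missing peak does not show that the RNA was absent from the immunoprecipitate. The Aox3 gene runs from 58113130 to 58200698 on the plus strand, so its peaks lie inside the gene and far from its annotated end. Those named below in Ppp1cb, Igf1, Nsd3, Mical2 and Asph also lie inside their genes, before the annotated end. At such peaks the tags of a transcript that ends there and of longer ones cannot be separated.

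Fcgr2b, the inhibitory receptor for IgG antibodies, had 2 peaks in the fasted list with 544.4 and 210.1 tags, 1 at 2 h with 361.8 and 1 at 10 h with 872.2, none overlapping an IgG peak. Cpeb4, which binds 3' UTRs of mRNAs to control their translation, held 469.3 tags in the fasted list, 226.2 at 2 h and 234.2 at 10 h. Rbm47, an RNA-binding protein that takes part in the editing of Apob mRNA, held 107.5, 292.5 and 417 tags. In tags, Cpeb4 was highest in the fasted list and Rbm47 lowest there, whereas in tags per kb Cpeb4 was highest at 10 h, at 213, 191 and 299 in the 3 lists. Mospd2, a membrane protein of contacts between the endoplasmic reticulum and other organelles, held 380.8, 214.3 and 427.9 tags. The casein kinase gene Csnk1a1 held 235.3, 319.1 and 316.8, and Matr3, a nuclear matrix protein that binds RNA, 146.9, 204.4 and 134.6. Among IgG-free regions with a 3' UTR peak at all 3 times, these 6 had the highest lowest value.

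Several strong peaks were listed at a single time or far higher at one. Gk, the gene for glycerol kinase, which feeds glycerol into gluconeogenesis, had 570.1 tags in the fasted list (chrX:85702551-85703476), no peak at 2 h and 79.9 tags at 10 h. Ppp1cb, a catalytic subunit of protein phosphatase 1, had 499.2 tags in the proximal part of the UTR in the fasted list alone, and small peaks further on with 16.6 tags (fasted), 14.2 (2 h), 35.6 (10 h) and 7.37 (IgG). Atp13a3, a polyamine transporter, had 441.2 tags, the fatty acid hydroxylase Cyp4a12a 356.1 and the ubiquitin-like protein Ubl3 224.4, all in the fasted list alone. These were the peaks with the most tags that met none of the other 3 lists.

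At 2 h alone stood peaks in Hnrnpu (276.9 tags), a nuclear RNA-binding protein, in the alcohol dehydrogenase Adh7 (217.2) and in Hal (158.4), the enzyme that begins histidine breakdown. Elsewhere in the Hnrnpu 3' UTR the IgG list had a peak of 382.7 tags. At 10 h alone stood Irf2bp2 (258.3), a transcriptional co-repressor, Hykk (210.7), a hydroxylysine kinase, Zbtb33 (202.5), a zinc finger protein that binds methylated DNA, and 2010315B03Rik (176.2). Irf2bp2 also had a separate fasted peak of 35.7 tags nearby. Dnaja1, a co-chaperone of HSP70, had 499.3 tags at 2 h and 75.5 at 10 h and none in the fasted list.

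The strongest 3' UTR peak of any NONO list overlapped no IgG peak, but several others in the top ranks met IgG or lay in genes with an IgG peak in the same UTR. Nsd3, a histone methyltransferase gene, held 759.3 tags in the fasted list, Cd46, a complement regulator, 409.4, 584.6 and 407.7, and Ewsr1, an RNA-binding protein of the FET family, 404.6 in the fasted list and 180 at 10 h. The merged region of Nsd3 also held 1006.6 tags at 2 h and 572.9 at 10 h, and that of Ewsr1 352.8 at 2 h. In both genes the 2 h peaks were centred outside the 3' UTR. Caprin1, an RNA-binding protein of stress granules, held 1143 tags in a fasted peak of 3119 bp that met an IgG peak centred outside the 3' UTR. The Cd46 peaks at 3 times span the genes of the microRNAs Mir29b-2 and Mir29c, and the tags of the 2 transcripts cannot be separated. Vezt, an adherens junction protein, held 97.0, 108.1 and 130.2 tags in peaks that likewise span Mir331. Chordc1, a co-chaperone of HSP90, held 34.2, 418.2 and 75.5 tags with 29.0 in the IgG list, and its 2 h peak of 5269 bp was the widest of any NONO list.

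In the IgG list itself the leading 3' UTR peak lay in Rbm4, a splicing regulator, with 1193.4 tags, against 267.9 at 2 h, 271.4 at 10 h and no fasted peak. Next came Il1rap, a subunit of the interleukin-1 receptor, with 539.1 tags over 9836 bp, Hnrnpu, Zfp950 with 258.0 and Snhg11 with 203.7. Il1rap and Zfp950 also had NONO peaks met by IgG, with 106.7 tags at 2 h and 143.9 tags at 10 h. Asph (167.4 tags over 5001 bp at 2 h), Nanos1 (167.4 over 3500 bp at 10 h), Rbm12 (126.3 over 4040 bp in the IgG list) and Mical2 (101.3 over 3155 bp in the fasted list) were otherwise named for their width.

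**Figure D4:**
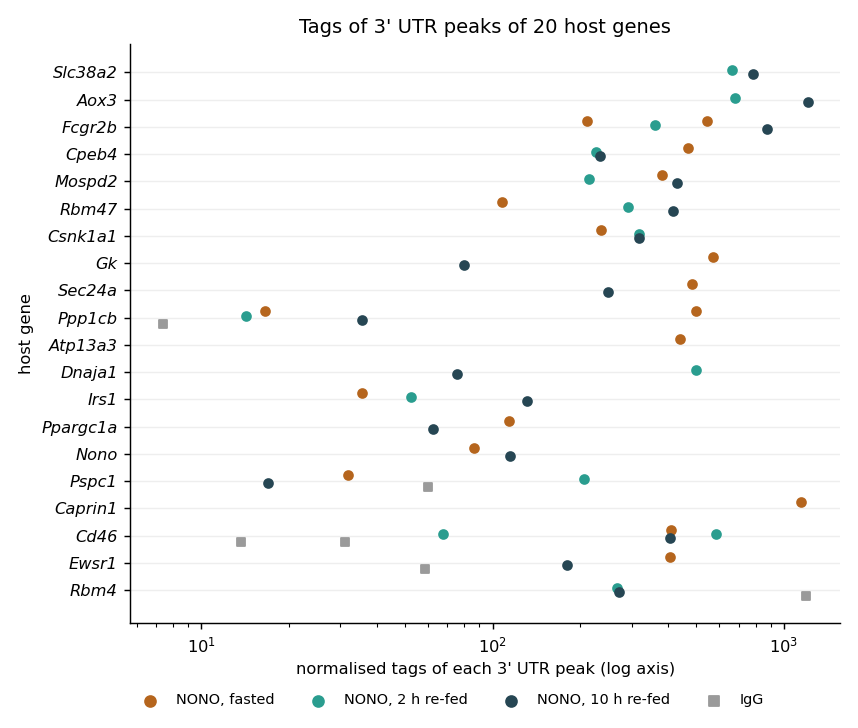
Normalised tags (x axis, log scale) of each 3' UTR peak of 20 host genes (y axis), with circles for the 3 NONO libraries and squares for IgG. Slc38a2 and Aox3 have circles at 2 h and 10 h only, Gk runs from 570.1 in the fasted list to 79.9 at 10 h, and Rbm4 has its highest point in the IgG list.

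Over peaks of any width, a 3' UTR peak was met by a peak at another time less often than peaks in general. Of fasted 3' UTR peaks 32.3% overlapped a 2 h peak and 33.1% a 10 h peak, where all fasted peaks gave 51.2% and 39.6%. Of 2 h 3' UTR peaks 20.9% overlapped a fasted peak and 32.7% a 10 h peak, where all 2 h peaks gave 28.9% and 40.1%. Of 10 h 3' UTR peaks 22.2% overlapped a fasted peak and 32.6% a 2 h peak, where all 10 h peaks gave 29.4% and 52.9%. The 6 shares were all lower than those of the whole lists, and the gap was widest for overlap with the 2 h list, the longest of the 3. Among peaks of exactly 500 bp this held for fasted peaks (25.1% against 39.6% with 2 h, 23.1% against 28.4% with 10 h) and for 10 h peaks (22.1% against 37.3% with 2 h, 13.3% against 17.8% with fasted). It did not hold for 2 h peaks of that width, at 24.7% against 21.9% with 10 h and 14.0% against 14.5% with fasted.

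Merging overlapping peaks gave 2167 regions with a 3' UTR peak at 1 or more times, of which 1842 were free of IgG. A peak was present at 1 time in 1556 regions, at 2 times in 421 and at all 3 in 190. By peak, 51.7% (fasted), 58.3% (2 h) and 56.8% (10 h) of 3' UTR peaks of any width met neither other time. Over all peaks of any width these shares were 36.5%, 48.3% and 38.5%. Among peaks of exactly 500 bp the difference was not seen at 2 h, with 67.9% of 3' UTR peaks and 68.7% of all peaks. In the fasted list these were 63.2% and 48.0%. At 10 h the share was 69.6% of 3' UTR peaks of that width and 53.0% of intron peaks. No like count by gene or by merged region over all peaks is given here. Counted by gene, 105 genes had an IgG-free 3' UTR peak at all 3 times, whereas 279 had one in the fasted list only, 362 at 2 h only and 458 at 10 h only. These counts pass over 3' UTR peaks at other times that IgG met. With such peaks counted too, the numbers were 159, 277, 407 and 480. The 3' UTR peak was the only NONO peak of the gene in that list for 160 of 675 host genes (fasted), 176 of 873 (2 h) and 216 of 977 (10 h).

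Where a 3' UTR region had a peak at both of 2 times, tag densities were mostly within 2-fold. From fasted to 2 h, 4 of 283 regions were at least 2-fold higher (1.41%) and 18 at least 2-fold lower (6.36%), with a median log2 ratio of -0.21. Over all merged regions the shares were 1.89% and 7.62%. From fasted to 10 h, 17 of 304 were higher (5.59%) and 13 lower (4.28%), with a median of -0.03, against 3.83% and 4.82% over all regions. From 2 h to 10 h, 25 of 404 were higher (6.19%) and 6 lower (1.49%), with a median of 0.20, against 4.64% and 1.47%. In each pair of times the shares in 3' UTR regions lay near those of all regions. The 3 comparisons share libraries.

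Input was known only as tags divided by fold, and a listed peak has to reach 2-fold, so that a large ratio of tags near that limit brings a like ratio of input by construction and the 2 could not be read apart. The fold over input differed by 2-fold or more in 35 of 991 ratios in 3' UTR regions (3.53%), against 5.64% of those over all regions. In Gk, density was 616 tags per kb in the fasted list and 97.0 at 10 h, at folds of 2.24 and 2.09, and the 2 peaks overlap only in part.

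Among IgG-free regions with at least 20 tags at both times, those most above fasted at 10 h were Irs1, the insulin receptor substrate, at 30.9, 43.3 and 128 tags per kb in the 3 lists, Mical2, an oxidoreductase that acts on actin, at 32.1, 51.0 and 127, and the place where Gorasp2 and Tlk1 meet, at 40.7 and 107. The Irs1 region also overlaps the gene Gm9747 and the peak strand is unknown. Most below fasted at 10 h were Gk, Rapgef4, an exchange factor activated by cyclic AMP, at 402 and 87.6, and Spin1, a reader of histone methylation, at 67.7 and 21.9. In Rapgef4 and Spin1 only the fasted peak was centred in the 3' UTR. The fold of Irs1 was 3.08, 2.30 and 2.23. Between Gorasp2 and Tlk1 the direction turns in tags, with 66.6 in the fasted list and 53.6 at 10 h.

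At 2 h, Azin1, a regulator of polyamine synthesis, stood at 80.5 tags per kb against 33.9 in the fasted list, and Rabgap1 at 29.3 against 79.0, although in tags Rabgap1 held 47.9 at 2 h and 39.5 in the fasted list. A second Azin1 region was level, at 308 at 2 h and 309 in the fasted list. Fh1, for fumarate hydratase, whose fasted peak was centred outside the 3' UTR, and Nono were at 1.65 and 1.64 times their fasted density at 2 h. In tags Fh1 was lower at 2 h, at 20.4 against 27.6. Between 2 h and 10 h, Mcc was at 43.3 and 152 tags per kb and Nap1l1, a histone chaperone, whose 2 h peak was centred outside the 3' UTR, at 17.0 and 58.1, whereas Clec11a was at 84.4 and 33.0, Tbc1d15 at 142 and 84.1 and Fcgr2b at 724 and 404. In tags Clec11a (42.2 and 40.5) and Tbc1d15 (71.1 and 70.6) were level and Fcgr2b was higher at 10 h, at 361.8 and 872.2. Sec24a, a coat protein of vesicles leaving the endoplasmic reticulum, had 484.5 tags in the fasted 3' UTR peak and 248.4 at 10 h. Its extreme ratios at 2 h (22.4 tags per kb against 395 in the fasted list) rest on a 2 h peak that was not centred in the 3' UTR, and it had no 3' UTR peak at 2 h.

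**Figure D5:**
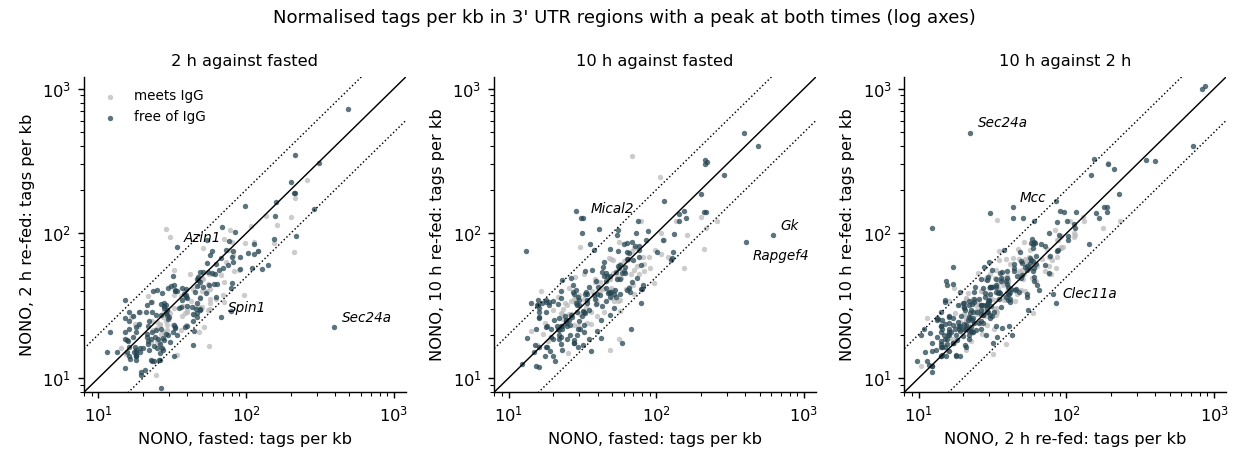
Normalised tags per kb in merged 3' UTR regions with a peak at both times, 1 panel for each pair of times, log scale on both axes, with a solid line at equality and dotted lines at 2-fold. Most points lie between the dotted lines, Gk and Rapgef4 lie below them at 10 h against fasted, and the point of Sec24a, whose 2 h peak is not centred in the 3' UTR, stands far off.

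Several regulators of glucose metabolism hosted 3' UTR peaks. Over all protein-coding genes, 8.41% hosted a NONO peak in the 3' UTR, or 20.4% of those with a NONO peak anywhere. In the list for gluconeogenesis and glycogen, 7 of 27 genes hosted one, or 31.8% of the 22 with a NONO peak, 6 of them free of IgG, among them Foxo1, Gsk3b, Phkb, Ppargc1a and Ppp1cb, and Creb1 had IgG overlap. Ppargc1a, a coactivator of the fasting programme, held 114.1 tags in the fasted list and 62.4 at 10 h. Its fold over input went the other way, at 2.05 in the fasted list and 2.85 at 10 h. Gsk3b, the kinase that inhibits glycogen synthase, held 29.4 at 2 h and 93.6 and 7.11 at 10 h. The gluconeogenic enzyme genes Pck1 and G6pc had no 3' UTR peak in any list. The list for insulin and nutrient signalling gave 4 of 24, or 19.0% of the 21 with a NONO peak, all free of IgG. These lists are short, and the counting error of their shares was not computed. Irs1 held 35.7, 52.6 and 131.3 tags, Igf1 183.3 at 10 h, and Prkaa1, a catalytic subunit of AMP-activated kinase, 21.3 at 2 h. In Igf1 an overlapping fasted peak of 14.3 tags was centred outside the 3' UTR. The insulin receptor gene Insr had 16, 36 and 20 NONO peaks but none centred in the 3' UTR.

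Glucose uptake and glycolysis gave 2 of 24 genes, or 10% of those with a NONO peak. They were Pfkfb2 with 107.8 tags at 10 h and Pfkfb3 with 40.3 at 2 h, both enzymes that set the level of fructose 2,6-bisphosphate. Slc2a2 and Pklr had none. In Pfkfb2 an overlapping 2 h peak of 57.4 tags was centred outside the 3' UTR. Lipid lists gave 1 of 28 for synthesis (Lpin1, 7.11 tags at 10 h) and 1 of 24 for oxidation and ketogenesis (Hadha, 7.11 tags at 2 h), with none in Fasn. Amino acid breakdown and urea cycle gave Hal and Cbs of 28, secreted hepatocyte proteins 2 of 28, among them Cp (11.4 tags in the fasted list), and bile acid and xenobiotic metabolism 0 of 24, although 22 of these had a NONO peak elsewhere in the gene. Neither Alb nor Tdo2 had a 3' UTR peak.

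Of the circadian clock genes 4 of 22 hosted an IgG-free peak, or 19.0% of the 21 with a NONO peak, against 18.4% of all genes with one. Rora, a nuclear receptor that activates Arntl, had 53.1 tags at 2 h, Nr1d2, a receptor that represses it, 30.1 at 10 h, and the repressor Bhlhe41 peaks of 11.4 and 8.53 at 2 h, the former met by IgG. Per1, Per2, Cry1, Arntl and Npas2 had no 3' UTR peak in any list, though Arntl had 7 and 16 NONO peaks elsewhere at 2 h and 10 h and Npas2 23 at 10 h.

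Paraspeckle and nuclear RNA-binding proteins were the list with the largest share of hosts, at 10 of 27. This was 43.5% of the 23 with a NONO peak, against 20.4% over all genes with one. The median 3' UTR was 1967 bases long over all 27 and 953.5 over all genes, in both cases with or without a NONO peak. IgG met the 3' UTR peaks of most. With IgG-free peaks alone, 4 of the 23 genes were hosts (17.4%), against 18.4% over all genes with a NONO peak, so the larger share was not seen there. Free of IgG were peaks of Matr3, Nono, Hnrnpd and Hnrnpu, and always met by it were those of others, among them Cpsf6, Elavl1, Ewsr1, Hnrnpk and Pspc1. In Nono itself, 86.5 tags were in the fasted 3' UTR peak and 114.9 at 10 h, and the overlapping 2 h peak of 101.5 tags was centred outside the UTR. Pspc1 held 31.9, 205.3 and 17.0 tags and 60 with IgG, and Cpsf6, a subunit of a 3' end processing factor, 260.3 at 2 h, 71.7 at 10 h and 67.4 with IgG. Sfpq had no 3' UTR peak. Slc7a2, named above as the classic case, had 10, 8 and 13 NONO peaks and 15 IgG peaks, none centred in its 3' UTR.

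Over all lists of metabolism, clock and signalling, 23 of the 198 genes with a NONO peak hosted one in the 3' UTR (11.6%), against 1765 of 8649 protein-coding genes with a NONO peak (20.4%). The median 3' UTR was 886.5 bases long over all 230 listed genes and 953.5 over all 20998 genes. Both medians include genes without a NONO peak, so UTR lengths of the genes behind the 2 shares were not compared. None of the 34 marker genes of hepatocytes, Kupffer cells, endothelium, stellate cells, cholangiocytes and blood cells hosted a 3' UTR peak, and 15 had a NONO peak elsewhere. Of the 8 hepatocyte markers 3, 3 and 5 had a peak at the 3 times, and of the 5 cholangiocyte markers none. Fewer cells of a type and less RNA per cell cannot be told apart in these bulk libraries.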

How the data were processed

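Per the labels' protocols, nuclei were taken through a sucrose cushion, RNA was recovered from anti-NONO or IgG beads, and libraries were made with a stranded total RNA kit after removal of ribosomal RNA. Reads were processed with FastQC 0.11.2, STAR 2.4.0k and HOMER on mm10, per the submitters' processing notes. Peaks called by the authors are 500 bp windows, per the file headers, joined within 1000 bp, which passed 2-fold and a Poisson p of 1e-04 over input and a threshold of 11 tags (8 for IgG). The deposited signal is the tags in a peak per 10000000 tags, per the file headers. In the deposited lists, fold is a ratio of scaled tags over the library's own input, and the deposited score is HOMER's peak score, used only to shorten lists.

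All peaks are listed on 1 strand, so overlapping and antisense genes cannot be separated; the midpoint lay in more than 1 gene for 15.1%, 15.0%, 14.3% and 23.2% of the 3' UTR peaks (fasted, 2 h, 10 h, IgG). Midpoints were laid on basic transcripts of GENCODE M21. An overlap is 1 bp, an IgG-free peak overlaps no IgG peak, input tags are tags divided by fold, and tags per kb are tags over width. Sequences came from GENCODE M21 transcripts, of which 21239 of 21244 had a stop codon before the 3' UTR. Python 3.11.15, pandas 2.3.3 and scipy 1.17.1 were used, and the scripts were tested on simulated peaks. With 1 library a group, values are given with exact Clopper-Pearson intervals at 95% for shares and no p-value.

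The members, gene lists and rules were chosen with earlier results of these data known. Genes were named by rule: per list the 5 peaks with most tags and the 2 widest; per time the 5 IgG-free peaks with most tags and the 4 with most tags that met no other list; the 6 IgG-free regions with the highest lowest tags over the 3 times; the 3 largest ratios per direction and pair of times; up to 3 genes per gene list by tags; and 19 genes whatever their values. Gga2, Dhtkd1, BC005537, Nsd2, Vezt and the members of gene lists beyond these 3 were named after their values were seen. Some genes that the rule names are left out of the text. Input libraries were used only through the deposited values, and reads were not used here.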

Additional observations from a re-analysis of the deposited data

How the results depend on the processing

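Of the 121 alternative values computed, 46 stayed within the counting interval of the main value or, for a count, within 1.5 times of it. No paired analysis was possible because there was a single library in each group. With all protein-coding transcripts in place of basic ones, the shares of the lists in 3' UTRs were 1.93%, 1.65%, 2.18% and 0.962%. With peaks of at least 3-fold over input, the shares of the lists in 3' UTRs became 1.25%, 1.03%, 1.17% and 0.780% (fasted, 2 h, 10 h, IgG), the IgG-free shares 93.9%, 91.2% and 93.8%, the host genes with an IgG-free peak 199, 303 and 229, with 626 at any time and 11 at all 3, and the median tags per kb 18.1, 16.1, 18.6 and 13.7; the NONO shares were still above that of IgG. Without peaks in more than 1 gene, the shares of the lists were 1.72%, 1.44%, 1.95% and 0.773%. With lists cut to 38209 peaks they were 1.93% at 2 h and 2.45% at 10 h, the fasted IgG-free share was 90.3%, and overlap with the 2 h list was 26.7% for fasted and 28.8% for 10 h peaks.

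The IgG-free shares were 81.1%, 76.9% and 79.9% when an IgG peak within 500 bp counted, and 93.1%, 92.7% and 91.3% when 50% of the NONO peak had to be covered. Among peaks of 500 bp, an alternative chosen after seeing the data, as was that of IgG-free regions for the ratios, they were 90.7%, 90.1% and 91.7%. Requiring 50% of the width, overlaps between times fell to 21.5% (fasted with 2 h), 23.6% (fasted with 10 h), 10.7% (2 h with fasted), 20.3% (2 h with 10 h), 13.4% (10 h with fasted) and 22% (10 h with 2 h). Scaled to tags outside the Rn7sk peak, the IgG median was 28.9 tags per kb, close to the NONO value at 2 h.

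The ratios between times depended most on the quantity. With normalised tags in place of tags per kb, the median log2 ratio of 2 h over fasted was 0.22, with 24.7% higher and 13.4% lower, that of 10 h over fasted 0.25, with 22.7% and 12.2%, and that of 10 h over 2 h 0.029, with 14.6% and 13.4%. The direction turned in Rabgap1 (log2 of 2 h over fasted -1.43, then 0.28), Spin1 (-1.36, then 0.31) and Gorasp2/Tlk1 (log2 of 10 h over fasted 1.40, then -0.31), and, among ratios under 2-fold, in Fcgr2b (10 h over 2 h -0.84, then 1.27) and Fh1 (2 h over fasted 0.72, then -0.44), because a wider peak holds more tags at a lower density. With both peaks at 3-fold or more, 2.5% of regions were lower and 0.00% higher at 2 h than fasted, the median of 10 h over fasted was -0.14, and 0.00% were higher or lower in the pairs with 10 h. Depth limits weak peaks most, since 11 tags (8 with IgG) decide whether a peak is listed.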

Other observations

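Some genes carried several 3' UTR peaks in 1 list, outside the rule for named genes. D1Ertd622e had 3 in the fasted list with 8.08, 12.8 and 57.1 tags, all free of IgG. Hnrnpr, for a nuclear RNA-binding protein, had 6 at 2 h, from 9.01 to 308.7 tags, of which the one with the most tags met an IgG peak and the 4 furthest from it did not. Fto, for an RNA demethylase, had 4 at 10 h, from 9.85 to 21.9 tags.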
